A study of Arabidopsis thaliana with 7 samples.

Results

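Of 27720 nuclear genes measured in 8-cell Arabidopsis thaliana embryos, 42 are described here: genes that were on in wild type and off in the bdl mutant. They were chosen by their measured levels. A gene was taken where its mean log2 intensity was at most 4 over the 3 bdl arrays and at least 6 over the 4 wild-type arrays, which is an intensity of at most 16 against at least 64. These thresholds took 54 genes, and 12 of them, which belong to other gene groups, were left out. The series compared bdl embryos with wild-type embryos (below, WT), both in the Columbia (Col-0) background, with 40 to 50 isolated embryos per array. The labels call the mutant Bodenlos (IAA12) and give neither the allele nor the way it is expressed. The growth protocol names kanamycin and phosphinothricin for selecting transgenic seed, without saying whether these plants carried a transgene. IAA12 had an intensity of 432 to 477 in the bdl arrays, against 135 to 167 in the WT arrays.

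BODENLOS is a repressor of the Aux/IAA family. In the early embryo it binds the auxin response factor MONOPTEROS, and auxin frees that factor by having the repressor degraded, after which genes for vascular tissue, cotyledons and the embryonic root are switched on. Embryos with a stabilised BODENLOS protein are known for a division plane that turns wrongly and for a seedling without a root.

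The values that chose the 42 genes are a description and carry no test. The log2 difference between bdl and WT had a median of -3.38 among them and ran from -6.06 to -2.20, against a median of -0.01 over all 27826 genes measured. WT was thus 4.60 to 66.7 times as bright as bdl, with a median of 10.4 times. There were 30 genes with a difference of at least 8-fold and 12 with at least 16-fold. RNA was measured in bulk, so fewer cells of a type and less RNA per cell cannot be told apart.

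The word off describes a threshold and not a measured absence. Of all genes, 58.4% had a bdl mean of at most 4, and 20.0% had a WT mean of at least 6. The median gene had a bdl mean of 3.17, and 21 of the 42 lay below it, while none lay below the 25th percentile of 1.81. Detection calls were not used here, so it is not known which bdl values exceeded background.

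**Figure D1:**
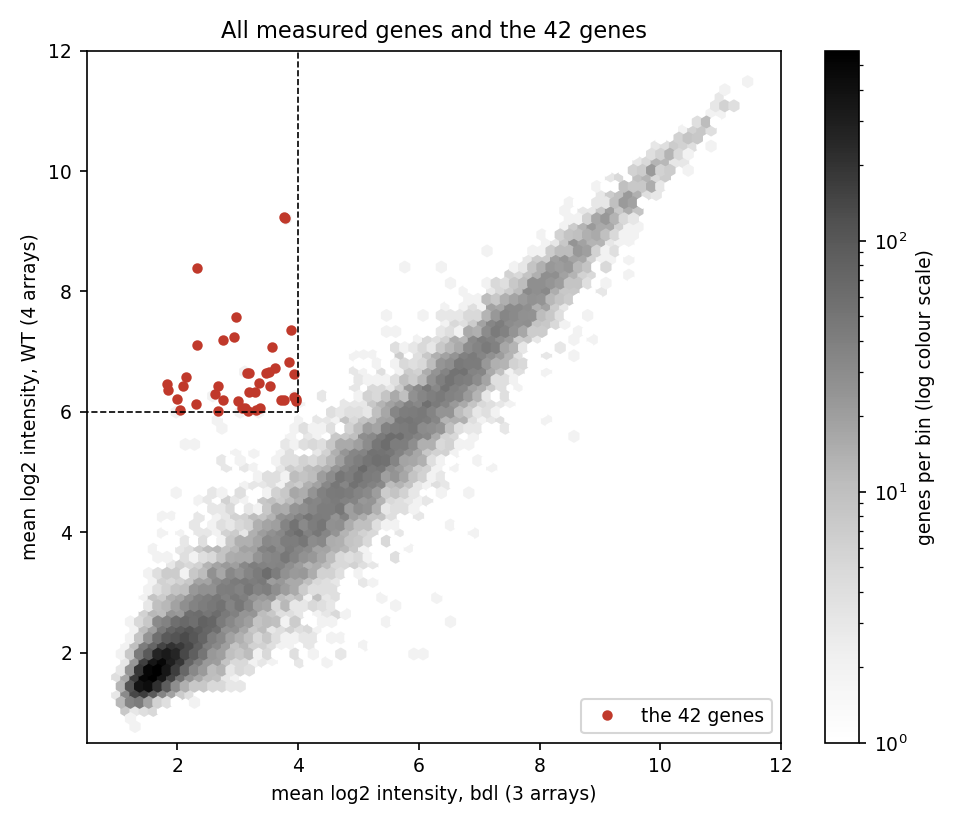
Mean log2 intensity in bdl (horizontal, 3 arrays) and in WT (vertical, 4 arrays) of all 27826 genes, shaded by their number per bin on a log colour scale, with the 42 genes in red. Dashed lines mark the thresholds of 4 and 6, and most genes lie near the diagonal.

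No array of one genotype overlapped the other for any of the 42 genes. The distance from the highest bdl array to the lowest WT array had a median of 2.22 on the log2 scale and ran from 0.27 to 5.20. Over all genes, 5.53% had every bdl array below every WT array, and nothing is read from the count among the 42, since the rule chose them on these values. By limma over all genes, 39 of the 42 were called lower, where 0.859% of all genes were, and again the rule had used this contrast. Only 7 genes had every array past its own threshold: in 27 genes at least 1 WT array lay under 6, and in 21 at least 1 bdl array lay over 4. Spread between replicates was wider than among all genes past the same threshold: the SD over the WT arrays had a median of 0.45, against 0.29 for the 5552 genes with a WT mean of at least 6. Over the bdl arrays the median SD was 0.62, against 0.28 for the 16257 genes with a bdl mean of at most 4. Level was not matched in either comparison, so the wider spread is not read as a trait of the 42 genes.

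**Figure D2:**
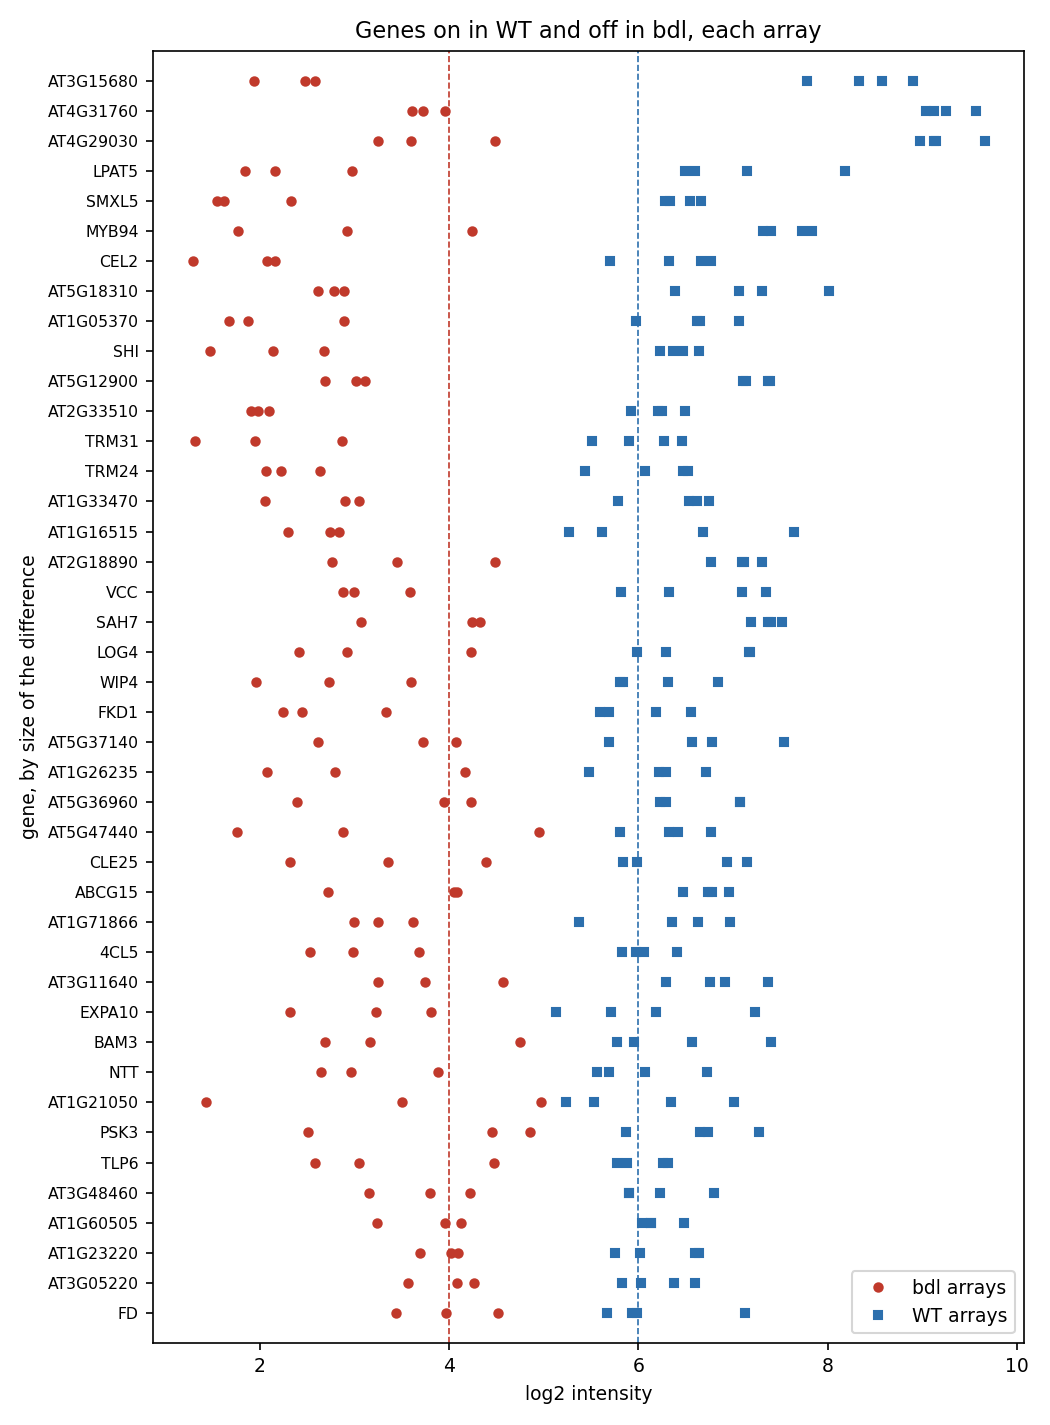
Log2 intensity (horizontal) of each of the 42 genes (rows, by the size of the difference) in each array, with bdl arrays as red circles and WT arrays as blue squares. Dashed lines mark 4 and 6; the bdl and WT arrays do not overlap in any row, and the smallest distance is 0.27.

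Among the 42 genes, 21 have a name in the RefSeq gene table and the other 21 are known by locus only. Of the named genes, 5 encode transcription factors, with log2 differences of -4.59 to -2.20. SHI, a zinc finger protein of the SHI/STY family first known for its dwarf mutant, had log2 intensities of 2.68, 1.48 and 2.15 in bdl arrays 1 to 3, against 6.47, 6.64, 6.23 and 6.36 in WT arrays 1 to 4. The difference was -4.33, and the 4 WT arrays lay within 0.41 of each other. WIP4 and NTT (also called WIP2) are zinc finger genes that act with WIP5 in starting the embryonic root, and NTT is also needed for the transmitting tract of the ovary. WIP4 had log2 intensities of 3.60, 2.73 and 1.96 in bdl, against 5.80, 5.84, 6.31 and 6.84 in WT, a difference of -3.43. NTT had 2.96, 2.65 and 3.89 in bdl, against 6.73, 6.07, 5.69 and 5.56 in WT, a difference of -2.85. In both genes 2 of the WT arrays lay under 6.

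MYB94, a MYB factor that activates synthesis of cuticular wax, had log2 intensities of 2.93, 4.24 and 1.77 in bdl, against 7.40, 7.31, 7.73 and 7.84 in WT. Its difference was -4.59, and the bdl arrays were spread over 2.47 while the WT arrays were within 0.52. FD, a bZIP factor known as the partner of the flowering signal FT, had 3.44, 4.51 and 3.97 in bdl, against 5.93, 5.99, 7.12 and 5.66 in WT. At -2.20 it had the smallest difference of the 42 genes, and it was taken with 3 of 4 WT arrays under 6.

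Genes of hormone and peptide signalling had differences of -4.62 to -2.69. SMXL5, a gene that promotes phloem formation together with SMXL3 and SMXL4, had log2 intensities of 1.55, 1.63 and 2.33 in bdl, against 6.66, 6.34, 6.29 and 6.54 in WT. Its difference was -4.62, and all 7 arrays lay past their thresholds. LOG4, an enzyme that releases active cytokinin and is switched on by TMO5 and LHW in root vascular cells, had 2.42, 2.92 and 4.23 in bdl, against 7.16, 7.17, 5.99 and 6.29 in WT, a difference of -3.46. The bdl array 3 was the highest of its group.

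CLE25 encodes a small secreted peptide linked to phloem formation and to signalling under drought, and BAM3 is a receptor kinase that perceives CLE peptides in the phloem. CLE25 had log2 intensities of 3.35, 4.39 and 2.32 in bdl, against 6.94, 5.99, 7.14 and 5.83 in WT, a difference of -3.12. BAM3 had 3.17, 4.75 and 2.69 in bdl, against 7.40, 5.77, 6.57 and 5.95 in WT, a difference of -2.89. In both genes bdl array 2 was the highest of its group, and WT arrays 2 and 4 were under 6. PSK3, a precursor of the growth peptide phytosulfokine, had 4.45, 4.85 and 2.51 in bdl, against 6.65, 5.86, 6.73 and 7.27 in WT, a difference of -2.69. Its groups came within 1.01 of each other.

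Another 2 genes are known from the pattern of veins. VCC, named for the complexity and connectivity of the vasculature, had log2 intensities of 3.001, 3.59 and 2.88 in bdl, against 7.10, 5.81, 7.35 and 6.32 in WT, a difference of -3.49. FKD1, which is needed for veins to close into loops, had 2.44, 3.33 and 2.24 in bdl, against 5.60, 5.69, 6.18 and 6.56 in WT, a difference of -3.33. The WT arrays of each gene lay on both sides of 6.

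TRM31 and TRM24 are TON1 recruiting motif proteins, a family named for its link to TON1, a protein of cortical microtubules and of the preprophase band that marks the plane of division. TRM31 had log2 intensities of 2.87, 1.96 and 1.32 in bdl, against 6.46, 5.505, 6.27 and 5.91 in WT, a difference of -3.98. TRM24 had 2.06, 2.23 and 2.64 in bdl, against 6.47, 6.53, 6.07 and 5.44 in WT, a difference of -3.82. All 3 bdl arrays lay under 3 in both genes.

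Genes of the cell wall, of phenolic and lipid metabolism and of ABC transport had differences of -4.77 to -2.95. LPAT5, a lysophosphatidyl acyltransferase, had log2 intensities of 2.16, 1.85 and 2.98 in bdl, against 6.49, 7.14, 6.59 and 8.18 in WT, a difference of -4.77. CEL2, a cellulase, had 2.08, 2.16 and 1.296 in bdl, against 6.76, 5.70, 6.33 and 6.66 in WT, a difference of -4.51. EXPA10 is an alpha-expansin, a protein that loosens the cell wall. It had 3.81, 3.23 and 2.32 in bdl, against 7.23, 6.19, 5.71 and 5.13 in WT, a difference of -2.95, and its WT arrays were spread over 2.0999.

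ABCG15, a half-size ABC transporter, had log2 intensities of 2.73, 4.06 and 4.09 in bdl, against 6.73, 6.78, 6.96 and 6.47 in WT, a difference of -3.11. The 4 WT arrays were within 0.49 of each other, and 2 bdl arrays lay just over 4. 4CL5, a 4-coumarate:CoA ligase of the phenylpropanoid pathway, had 3.68, 2.99 and 2.53 in bdl, against 6.06, 5.83, 6.40 and 5.98 in WT, a difference of -3.0007. SAH7 had 4.32, 3.07 and 4.24 in bdl, against 7.19, 7.52, 7.40 and 7.36 in WT, a difference of -3.49, with its WT arrays within 0.33 of each other. TLP6, a tubby-like protein, had 3.05, 4.48 and 2.58 in bdl, against 5.88, 6.26, 5.77 and 6.31 in WT, a difference of -2.69.

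The 3 greatest differences belonged to loci without a name. AT3G15680 had log2 intensities of 2.48, 1.94 and 2.59 in bdl, against 8.57, 7.78, 8.89 and 8.33 in WT, a difference of -6.06. AT4G31760 had 3.61, 3.95 and 3.73 in bdl, against 9.04, 9.12, 9.25 and 9.56 in WT, a difference of -5.48. AT4G29030 had 4.48, 3.60 and 3.25 in bdl, against 9.14, 9.12, 9.65 and 8.97 in WT, a difference of -5.44. Each was separated by at least 4.48 between its highest bdl and its lowest WT array.

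Among the other loci without a name, AT5G12900 and AT2G33510 were even between replicates. AT5G12900 had log2 intensities of 3.11, 2.69 and 3.02 in bdl, against 7.37, 7.10, 7.39 and 7.14 in WT, a difference of -4.31. AT2G33510 had 1.91, 2.102 and 1.98 in bdl, against 6.496, 5.92, 6.250 and 6.21 in WT, a difference of -4.22. The bdl arrays were within 0.42 in the one and 0.20 in the other. AT5G18310 had 2.62, 2.89 and 2.78 in bdl, against 6.39, 7.31, 7.06 and 8.01 in WT, and AT1G05370 had 1.88, 1.68 and 2.90 in bdl, against 5.97, 6.62, 6.65 and 7.06 in WT. Both had a difference of -4.43, and in both WT array 1 was the lowest and WT array 4 the highest of the group.

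AT1G33470 had log2 intensities of 2.90, 3.05 and 2.06 in bdl, against 6.54, 6.62, 6.75 and 5.78 in WT, a difference of -3.75. AT1G16515 had 2.75, 2.30 and 2.84 in bdl, against 6.68, 5.61, 7.64 and 5.27 in WT, a difference of -3.67. Its WT arrays were spread over 2.37, more than those of any other of the 42 genes. AT2G18890 had 3.45, 2.77 and 4.49 in bdl, against 7.31, 6.76, 7.12 and 7.09 in WT, a difference of -3.501. AT5G37140 had 3.72, 2.61 and 4.07 in bdl, against 6.77, 6.56, 7.53 and 5.69 in WT, a difference of -3.17. In these last 2 genes bdl array 3 was the highest of its group and lay over 4. AT5G36960 had 2.40, 4.23 and 3.95 in bdl, against 6.23, 6.29, 7.07 and 7.07 in WT, a difference of -3.14. The RefSeq table lists 40 of the 42 genes as protein coding. AT1G26235 is listed as a non-coding RNA, and it had 2.07, 2.80 and 4.17 in bdl, against 5.48, 6.21, 6.29 and 6.71 in WT, a difference of -3.16.

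The remaining 8 loci had differences of -3.13 to -2.24. They were AT5G47440, AT1G71866, AT3G11640, AT1G21050, AT3G48460, AT1G60505 (listed as a long non-coding RNA), AT1G23220 and AT3G05220. AT1G21050 had the widest spread of any of the 42, with 1.44, 4.97 and 3.501 in bdl against 7.004, 6.35, 5.53 and 5.24 in WT, and its groups came within 0.27 of each other. AT5G47440 had 4.95, 2.88 and 1.76 in bdl against 6.33, 6.77, 6.42 and 5.80 in WT. With PSK3, these were the 3 genes that limma did not call.

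Near a threshold, the rule parts some genes with close means. With either mean within 0.25 of its threshold, 21 of the 42 genes lay just inside and 18 other genes just outside. Among the 18, AT1G29951 and AT1G29952 had identical means, 2.68 in bdl and 5.79 in WT, so they may not be separate measurements. A gene can be at the edge by its bdl mean alone. AT4G31760 and AT4G29030 were, with bdl means of 3.76 and 3.78 and WT means of 9.24 and 9.22. NTT was inside with a WT mean of 6.01, and so was FKD1 at 6.01. IAA1, an auxin-induced repressor of the same family as BODENLOS, was outside with means of 1.74 in bdl and 5.91 in WT. ACI1, which the RefSeq table also lists as TRM29, was outside with 2.01 in bdl and 5.80 in WT. BRX, a regulator of protophloem, was outside on the other side with 4.104 in bdl and 6.34 in WT. The reverse thresholds, a bdl mean of at least 6 and a WT mean of at most 4, took 42 genes before any were left out, against 54 in the direction described here.

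The relatives of these genes, which the rule did not use, were then tested, in 16 families with 170 other measured members. The families were put together from RefSeq names after the 42 genes were known, and their members were taken for the name and not for their values. Of the 170 relatives, 7 fell, 6 rose and 157 did not pass (limma over all genes, Benjamini-Hochberg adjusted p under 0.05), where 1.76% of all genes were called, 0.859% lower and 0.902% higher. Their median log2 difference was -0.09, against -0.01 over all genes. Without WT array 3 or bdl array 1, 8 relatives were called, and without bdl array 2 or 3, 7 were. In both bdl and WT, 29 of the 170 had a mean under the 25th percentile.

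In the SHI/STY family, STY1 fell and SRS4 rose. SRS4 had log2 intensities of 4.78, 5.498 and 4.85 in bdl, against 1.57, 1.63, 1.56 and 1.85 in WT, a difference of 3.39 ± 0.23 (SE; limma, adjusted p = 0.000351), and it was called in all 7 omissions of an array. STY1 had 2.22, 2.18 and 2.61 in bdl, against 3.91, 5.46, 4.27 and 4.23 in WT, a difference of -2.13 ± 0.36 (SE; limma, adjusted p = 0.0285). Its call was lost without WT 3, WT 4 or any 1 bdl array, with differences of -2.32 to -1.80 over the omissions. The other 7 members did not pass. STY1 is known as an activator of auxin synthesis.

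The TRM family held called relatives in both directions. Of 32 relatives, 2 fell, 1 rose and 29 did not pass. ACI1 had log2 intensities of 2.001, 1.64 and 2.39 in bdl, against 5.79, 5.60, 6.26 and 5.54 in WT, a difference of -3.79 ± 0.26 (SE; limma, adjusted p = 0.000427). LNG1, which promotes growth along the length of organs, had 4.88, 4.35 and 5.04 in bdl, against 1.98, 1.34, 1.84 and 2.60 in WT, a difference of 2.82 ± 0.32 (SE; limma, adjusted p = 0.00412). Both kept their call in all 7 omissions of an array. TRM22 fell by 1.93 (limma, adjusted p = 0.0231), a call lost without WT 1, WT 2, WT 3, bdl 2 or bdl 3 (-2.25 to -1.75 over the omissions).

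Of 29 other CLE genes, 2 fell, 1 rose and 26 did not pass. CLE17 fell by 3.29 (limma, adjusted p = 0.00199), in all 7 omissions of an array. CLE19 fell by 3.22 (limma, adjusted p = 0.0194) and lost its call without WT 1, WT 2 or any 1 bdl array (-3.63 to -2.92). CLE45, the peptide that BAM3 is known to perceive in protophloem, rose by 1.95 (limma, adjusted p = 0.0208), a call lost without WT 2, WT 3, WT 4, bdl 2 or bdl 3 (1.76 to 2.20). The other receptors of the BAM3 group did not pass: BAM1 had mean log2 intensities of 7.39 in bdl and 7.71 in WT, BAM2 had 6.24 in bdl and 6.16 in WT, and CLV1 had 2.94 in bdl and 3.35 in WT.

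Among 8 other LOG genes, LOG7 rose by 1.59 (limma, adjusted p = 0.0281), with means of 7.51 in bdl and 5.92 in WT. The call was kept only without WT 2, with differences of 1.49 to 1.83 over the omissions. LOG3, which acts with LOG4 in the root, had means of 1.49 in bdl and 1.84 in WT and did not pass. LOG5 had means of 5.89 in bdl and 3.73 in WT, a difference of 2.17 that did not pass (limma, adjusted p = 0.132).

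None of 7 other SMXL genes passed by limma, and none had an unadjusted p under 0.05. SMXL3 had mean log2 intensities of 1.75 in bdl and 2.15 in WT, and SMXL4 had 1.63 in bdl and 1.63 in WT. None of the 4 other WIP genes passed either, with 1 at an unadjusted p under 0.05. WIP5, the partner of WIP4 and NTT in the root, had 1.96 in bdl and 2.86 in WT, a difference of -0.90 (limma, adjusted p = 0.573). These dim levels leave little room for a fall to be seen.

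Of 22 other alpha-expansins, EXPA15 fell by 2.06 (limma, adjusted p = 0.00442) and EXPA6 by 2.09 (limma, adjusted p = 0.00616), both in all 7 omissions of an array, and 20 did not pass. Of 24 other GH9 endoglucanases, the family of CEL2, GH9B8 rose by 1.48 (limma, adjusted p = 0.0145), a call lost without bdl 1 or bdl 2 (1.37 to 1.61), and 23 did not pass. In the group of MYB94, MYB60 rose by 1.26 (limma, adjusted p = 0.0310), which no omission of an array kept (1.06 to 1.38). MYB96, which shares the activation of wax genes with MYB94, had means of 5.24 in bdl and 5.06 in WT and did not pass.

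No relative was called among 10 tubby-like, 5 PSK, 4 LPAT and 4 4CL genes, among ABCG11 to ABCG14, or for BZIP27, the close relative of FD. An unadjusted limma p under 0.05 was found for 1 PSK gene and 2 of ABCG11 to ABCG14, and for 0 of the others. ABCG12, a wax exporter, had means of 1.87 in bdl and 3.12 in WT, and PSK1 had 9.25 in bdl and 8.82 in WT.

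**Figure D3:**
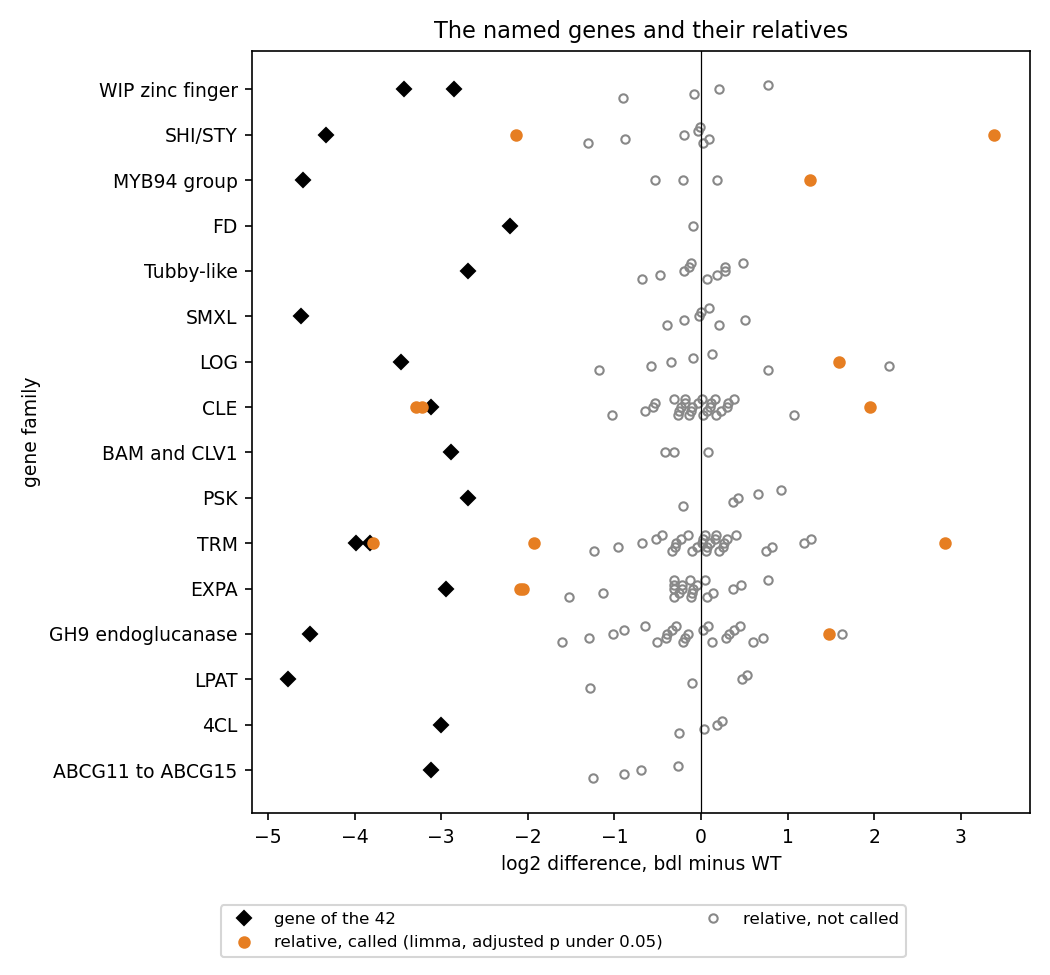
Log2 difference between bdl and WT (horizontal) of the named genes of the 42 (black diamonds) and of their relatives in 16 families (rows), filled orange where limma called the relative and open grey where it did not. The diamonds lie at -2.20 or below because the rule chose them; of the 170 relatives 13 are orange, from ACI1 at -3.79 to SRS4 at 3.39.

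In lists of the pathways in which the named genes or their families act, 5 of 51 genes were called, or 9.80%, where 1.76% of all genes were. The lists were also chosen after the 42 genes and the values were known, so the share is a description. They hold none of the 42 genes. Of 28 vascular and phloem genes, 3 fell, or 10.7% where 0.859% of all genes did, 1 rose and 24 did not pass. Their median log2 difference was -0.28, against -0.01 over all genes. HP6 (AHP6), an inhibitor of cytokinin signalling, fell by 1.88 (limma, adjusted p = 0.00432) in all 7 omissions. It is also counted among the MONOPTEROS targets below. ATHB-15 fell by 1.68 (limma, adjusted p = 0.0146), a call lost without WT 3, bdl 2 or bdl 3 (-1.86 to -1.55). BRX fell by 2.23 (limma, adjusted p = 0.0228), a call lost without WT 2, WT 3, WT 4, bdl 2 or bdl 3 (-2.61 to -2.01). CLE45, already counted among the CLE relatives, was the gene that rose. LHW, the partner of TMO5, had means of 5.96 in bdl and 6.37 in WT, and OPS, a protophloem protein gene, had 6.17 in bdl and 6.20 in WT. Neither passed. Markers of later phloem and xylem were dim: APL had means of 1.73 in bdl and 1.65 in WT, and VND7 had 1.62 in bdl and 1.54 in WT. Over the 51 genes, the count was 2 without WT 2 or WT 4, and 1 without WT 3, bdl 2 or bdl 3.

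No call was made by limma among 10 receptors and partners of the named genes or of their families, where 2 had an unadjusted p under 0.05. PSKR1, a receptor of phytosulfokine, had means of 5.67 in bdl and 5.84 in WT. MAX2, an F-box protein of strigolactone and karrikin signalling, had 6.98 in bdl and 6.05 in WT. FT, the partner of FD, had 1.33 in bdl and 2.01 in WT. Of 13 genes of wax synthesis and export, LTPG1, a lipid transfer protein gene, fell by 1.07 (limma, adjusted p = 0.0208), and 12 did not pass. Its call was kept only without WT 1 (-1.16 to -1.02 over the omissions).

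Among genes of the auxin response itself, 8 of 18 targets of MONOPTEROS fell, 1 rose and 9 were not called, where 0.859% of all genes were called lower. The median log2 difference of these targets was -1.50. Aux/IAA genes numbered 29, of which 8 fell, 1 rose and 20 were not called (median -0.45). The gene that rose was IAA12, the BODENLOS gene itself, by 1.59 (limma, adjusted p = 0.00287). Auxin transport genes numbered 16, of which 3 fell and 13 were not called (median -0.31). The lists share genes with each other and were chosen with earlier results of these arrays known. They also hold genes that were left out of the rule, 4 among the MONOPTEROS targets, 2 among the Aux/IAA genes and 2 among the transport genes, and all of these were called lower. In each list 2 of them lay past both thresholds, PIN4 and LAX2 in the last, so the counts are partly fixed by the levels that define the rule, and nothing is read from them about the 42 genes. Calls were lost without 1 array for IAA8 (in 7 of 7 omissions), IAA13 and CRF2 (in 6 each), AFO (in 5) and IAA18 (in 4). The TMO5 gene (BHLH32), one of the genes left out, that acts upstream of LOG4 had means of 1.96 in bdl and 5.20 in WT, a fall of 3.24 ± 0.30 (SE; limma, adjusted p = 0.00175), and it was called in all 7 omissions.

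The neighbours of the 42 genes on the chromosome were tested next. None of the 42 lay next to another in locus order. The closest were AT5G36960 and AT5G37140, 13 loci apart, and ABCG15 and 4CL5, 16 loci apart. Of the 42, 14 were on chromosome 3, or 33.3%, where 20.0% of nuclear loci lie. Chromosomes 1, 2, 4 and 5 held 11, 3, 5 and 9. Of the 84 adjacent genes, 4 fell, 1 rose and 79 did not pass, which is 5.95% called against 1.76% of all genes. Their median difference was -0.14, against -0.01 over all genes. The count was 3 without any 1 of WT 1, WT 2, WT 3 or the 3 bdl arrays.

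AT4G29020, next to AT4G29030, had log2 means of 6.33 in bdl and 9.21 in WT, a fall of 2.88 ± 0.21 (SE; limma, adjusted p = 0.000549). TZF9, a tandem zinc finger gene next to TRM31, had means of 3.17 in bdl and 5.08 in WT and fell by 1.91 (limma, adjusted p = 0.00427). AT1G71870 and AT1G71865 lie on either side of AT1G71866. AT1G71870 fell by 1.54 (limma, adjusted p = 0.00669). AT1G71865 fell by 2.61 (limma, adjusted p = 0.0409), a call that was kept only without WT 4 (-2.92 to -2.35). AT3G15690, beside AT3G15680, rose by 1.27 (limma, adjusted p = 0.0425), which no omission of an array kept (1.11 to 1.41). The first 3 of these genes were called in all 7 omissions. By RefSeq coordinates, 9 of the 42 genes overlap a measured gene, and 2 of the called neighbours are among these: AT1G71865 overlaps AT1G71866, and TZF9 overlaps TRM31. Probe positions were not used here, so the values of such pairs are uncertain. The overlapping neighbours of FKD1, SHI, VCC, 4CL5 and SAH7 did not pass.

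**Figure D4:**
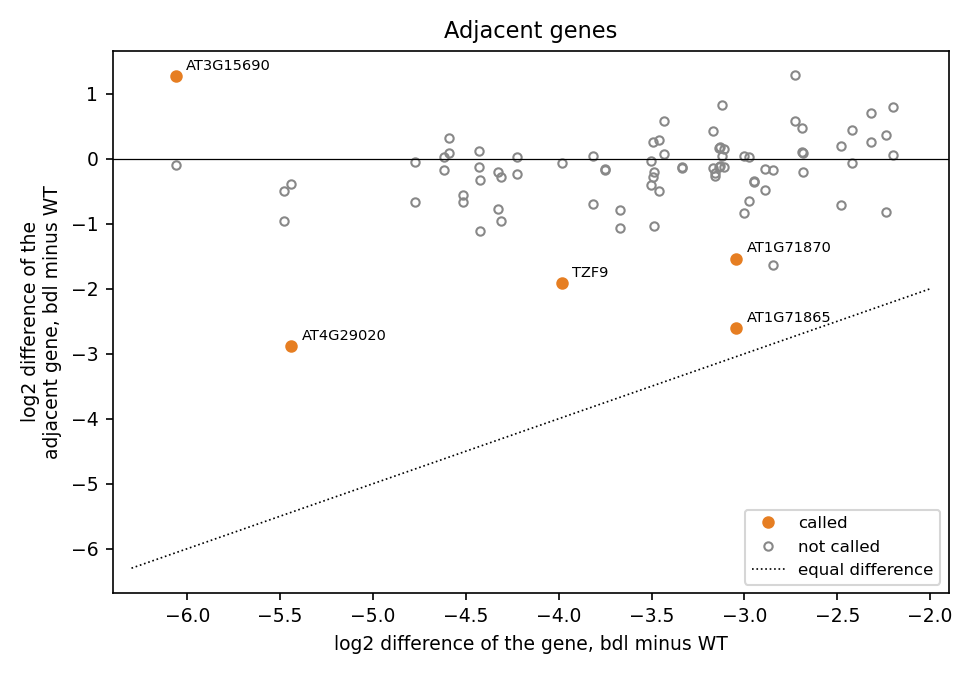
Log2 difference between bdl and WT of each of the 84 adjacent genes (vertical) against that of the gene it adjoins (horizontal), orange where limma called the adjacent gene. All points lie above the dotted line of equal difference, and the 5 called genes are labelled.

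Of 13 markers of the early embryo, 7 fell and 6 did not pass, which is 53.8% called lower where 0.859% of all genes were. The list was chosen with earlier results of these arrays known, and level was not matched, so the share is a description. ESR1 is also counted among the MONOPTEROS targets above. All 13 lay above the 25th percentile in at least 1 genotype. PDF1, a gene of the embryo's outer layer, had means of 7.67 in bdl and 10.5 in WT, a fall of 2.83 ± 0.19 (SE; limma, adjusted p = 0.000318). REV, a class III HD-ZIP gene, fell by 2.02 (limma, adjusted p = 0.00432), PLT1 by 1.86 (limma, adjusted p = 0.00244) and BBM by 1.63 (limma, adjusted p = 0.00389). These 4 and ESR1 were called in all 7 omissions. AGO10 fell by 1.65 (limma, adjusted p = 0.0310), a call kept only without WT 4 (-1.85 to -1.47), and PHB fell by 1.33 (limma, adjusted p = 0.0235), a call kept only without WT 1 or bdl 2 (-1.49 to -1.18). Among those that did not pass, WOX8 had means of 8.80 in bdl and 8.82 in WT, and LEC1 had 9.14 in bdl and 8.46 in WT.

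Tissue markers for seed coat, endosperm, pollen, suspensor and green tissue numbered 57. Of these, no gene fell and 1 rose by limma over all genes, with 6 at an unadjusted p under 0.05. That is 1.75% called, where 1.76% of all genes were. The suspensor list shares WOX8 with the early embryo markers and HB-3 with the MONOPTEROS targets. CAB1 (LHCB1.3), a green tissue gene, rose by 2.05 (limma, adjusted p = 0.0281), a call lost without WT 1, WT 2, WT 4, bdl 1 or bdl 3 (1.78 to 2.36). The summed intensity of the 42 genes was 401 to 489 in the bdl arrays, against 4855 to 5896 in the WT arrays. That of 13 seed coat markers was 84.3 to 377 in bdl and 183 to 532 in WT, that of 15 pollen markers 80.3 to 351 in bdl and 72.2 to 743 in WT, and that of 12 green tissue markers 141 to 254 in bdl and 102 to 174 in WT, so these lists overlapped between genotypes. Within the seed coat list, 3 genes had an unadjusted limma p under 0.05. Of these, STK (-1.72) and TT2 (-1.40) were lower in bdl and TT1 (0.77) was higher, and none passed after adjustment. The sum of 11 endosperm markers was 129 to 241 in bdl and 253 to 367 in WT. That of 6 suspensor markers was 1519 to 1700 in bdl and 1895 to 2316 in WT. Neither sum overlapped, but the mean log2 intensity of each of these lists did overlap between genotypes. A sum weighs bright genes most. The brightest gene of each list, SUC5 for endosperm and HB-3 for suspensor, also had its lowest difference, at -0.93 and -0.82. Neither gene passed, so the sums do not show a fall across either list. No marker is listed at 0. Under the 25th percentile in both genotypes were 5 endosperm markers, 4 pollen markers, and 1 each of the seed coat and suspensor lists. The part of these tissues in the levels of the 42 genes was not tested.

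**Figure D5:**
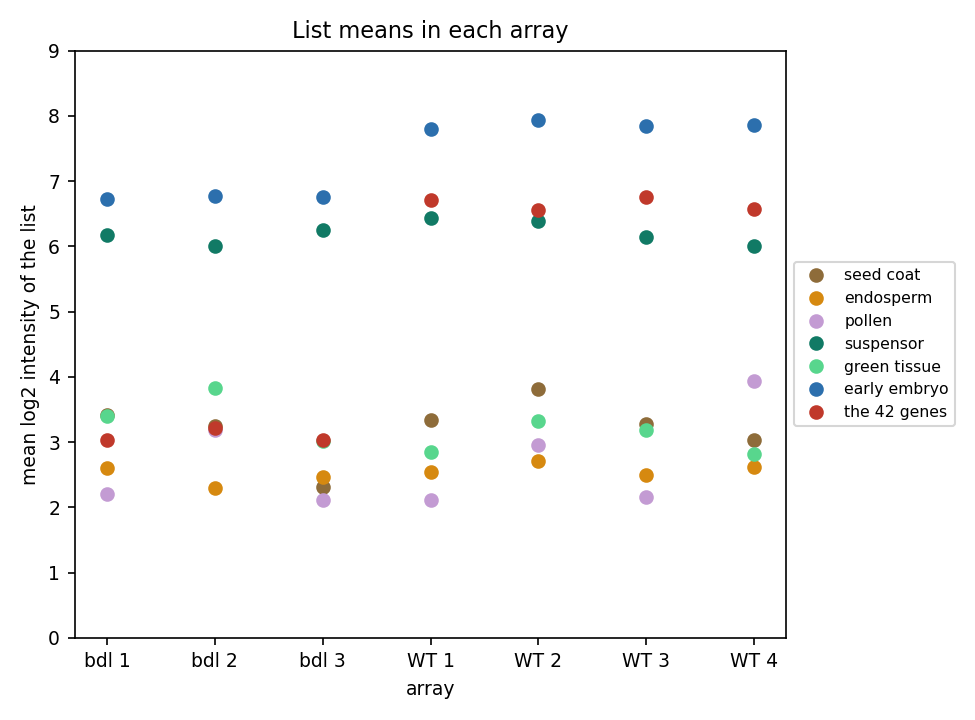
Mean log2 intensity of each marker list and of the 42 genes (vertical) in each array (horizontal, bdl then WT). The 42 genes average 3.03 to 3.22 in bdl and 6.56 to 6.76 in WT, while the pollen list is highest in bdl 2 among the bdl arrays and in WT 4 among the WT arrays, and the seed coat list is lowest in bdl 3.

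Which WT array was highest or lowest varied between the 42 genes. Single genes could still depend on 1 WT array: EXPA10 was no longer taken without WT 1, and WIP4 without WT 4. WT arrays 1, 2, 3 and 4 held the highest value of 11, 9, 12 and 10 of the genes and the lowest value of 11, 12, 6 and 13. Among the bdl arrays, 1, 2 and 3 held the highest value of 10, 18 and 14 genes. The median intensity of an array over all genes was 8.77 to 9.37 in bdl and 8.44 to 9.20 in WT. Across genes, arrays of a genotype correlated at 0.934 to 0.960 and arrays of different genotypes at 0.921 to 0.945; genes are not independent replicates.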

How the data were processed

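RNA of isolated embryos was measured on 3 bdl arrays and 4 WT arrays, grouped by the sample titles. The series' design text speaks of 3 replicates per genotype, while 4 arrays are labelled wild type; all 4 were used. The deposited table holds 1 intensity per array for each of 27826 probe sets, named by locus. Normalization was by RMA, per the submitters' processing notes. Its version, the chip definition and the build are not given in any source used here. Intensity values as deposited are linear and above 0, so log2 was taken with no pseudocount and no further scaling. Precision is limited by there being 7 arrays, and since the labels name no separate harvests, p-values cover the spread between these arrays alone.

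The 42 genes were selected by the stated thresholds. Relatives, neighbours and lists were tested with limma 3.58.1 in R 4.3.3 (lmFit, eBayes, 2-sided), fitted on all genes with Benjamini-Hochberg adjustment and called at an adjusted p under 0.05. Adjacent genes are the nearest measured loci in locus order. Names, overlaps and neighbours were read from RefSeq (TAIR10.1), whose coordinates are not printed. Each SE is limma's moderated SE. Protein and promoter sequences were not used here, so the comparison of closest paralogues and the motif search were not made; families by name were used in place of paralogues.

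All 42 genes are named. Values per array are given for the 25 with the greatest difference and for those with a symbol, and 2 more (AT1G21050 and AT5G47440) were chosen after their values were seen. The genes and lists were chosen with earlier results of these data known, and the families and pathway lists after the values were seen. The fit was tested on simulated data, in 5 runs with 200 changed genes each. It called 9.2% of log2 changes of 1, 81.2% of those of 2 and 95.2% of those of 3. Of its calls, 6.13% were false. A gene that did not pass is thus not shown to be unchanged. Alternatives were other scalings, variance models, array weights, a replicate block, a filter on dim genes, other thresholds and leaving out each array. Figures were drawn with matplotlib 3.10.9.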

Additional observations from a re-analysis of the deposited data

How the results depend on the processing

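The choice of genes depends on its thresholds. With WT at least 5.5 and bdl at most 4.5 the rule took 108 genes, with 6.5 and 3.5 it took 9, with every array past its threshold 7, and with bdl at most the median of all genes 21. Centring the array medians gave 44 and quantile normalization 45, each with all 42 shared, and medians of the arrays gave 41 with 32 shared. Without 1 array the count was 36 to 45; 20 of the 42 were taken in all 7 omissions and 22 dropped out of at least 1. In 546 recomputed differences of the 42 genes, none changed sign or moved by over 1 SD. In each of these genes every WT array lay above every bdl array, so leaving out an array could not change a sign. The rule chose the genes on these values, so the kept signs are a description and not a test.

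Whether the replicate numbers pair the arrays was not settled. Deviations of same-numbered arrays correlated at 0.0364 to 0.0472, and differently numbered arrays were not compared beside them. With the replicate block, on 6 arrays, calls numbered 2 among adjacent genes, 12 in the auxin and embryo lists, 0 among the tissue markers, 6 among relatives and 0 in the pathway lists. Without it they were 5, 25, 1, 13 and 5. With trend and robust variance, 2 of the tissue markers were called. With 3 neighbours on each side, 10 of 252 genes were called. Without 1 array the counts were 3 to 4 adjacent genes, 18 to 22 in the auxin and embryo lists, 0 to 1 markers, 7 to 10 relatives and 1 to 5 in the pathway lists. Of 47 called genes, none changed sign in any alternative, 27 were called in all 7 omissions and 20 were not. Precision is limited by 7 arrays, and dim genes leave little room for a fall. The comparisons of closest paralogues and of promoter motifs, with their alternatives, were not run.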
